A study of Mus musculus with 12 samples.

Results

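The genes described here make the machinery with which MHC class II molecules present peptides to CD4 T cells. They were chosen by symbol, as 7 of the 35976 genes listed in the count files: H2-Aa, H2-Ab1, H2-Eb1, Cd74, Ciita, H2-DMa and H2-DMb1. RNA-seq was performed on scars from the back skin of 12 male mice, aged 8 to 12 weeks when wounded, 3 in each of 4 groups. The groups were Tem1WT/WT sham, Tem1WT/WT traction, Tem1lacZ/lacZ sham and Tem1lacZ/lacZ traction, hereafter WT and lacZ. The lacZ mice carry a lacZ reporter in the place of the coding sequence of Tem1, the gene listed as Cd248, in every cell from the germline on, and came from 10 generations of backcrossing to C57BL/6J. All mice received a 1.5-cm wound and, after 6 days, a plastic device. Traction mice had theirs lengthened each day (1 mm/day, 8 mm in total), while sham mice wore it without lengthening. The comparisons ask whether stretching a scar, or the loss of TEM1, goes with another level of the class II genes.

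MHC class II molecules are pairs of an α and a β chain that bind peptides cut from proteins taken up by the cell. They are made constitutively by dendritic cells, Langerhans cells, B cells and some macrophages, and interferon-γ induces them in many other cells. The invariant chain (Cd74) escorts each new pair and fills its groove, the H2-DM heterodimer exchanges the remnant of that chain for a peptide, and the transactivator encoded by Ciita switches the genes on through factors already bound to their promoters. C57BL/6 mice carry a defective I-E α chain gene, so that H2-Eb1 is transcribed there without the I-E molecule reaching the cell surface.

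The promoter of a class II gene carries an X box, bound by the RFX complex and CREB, followed by a Y box, bound by NF-Y, and CIITA docks on this assembly. The 250 bases before the transcription start are printed for 3 members, a set that moved together across the libraries and was named after its values were seen. Whether their promoters have a part in their levels was not tested. The sequences are from RefSeq on GRCm38.p6 and are written 5′ to 3′ on the strand of the gene. Capitals mark the letters CCAAT of the Y box or ACNGATG from the end of the X box, on either strand. H2-Aa lies on the reverse strand (chr17:34287824-34288073), while H2-Eb1 (chr17:34305617-34305866) and H2-DMb1 (chr17:34152941-34153190) lie on the forward strand.
H2-Eb1: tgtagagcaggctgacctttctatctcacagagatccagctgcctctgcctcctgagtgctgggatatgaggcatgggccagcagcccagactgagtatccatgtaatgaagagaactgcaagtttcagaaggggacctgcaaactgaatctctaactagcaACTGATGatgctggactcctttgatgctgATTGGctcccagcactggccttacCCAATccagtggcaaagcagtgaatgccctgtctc
H2-DMb1: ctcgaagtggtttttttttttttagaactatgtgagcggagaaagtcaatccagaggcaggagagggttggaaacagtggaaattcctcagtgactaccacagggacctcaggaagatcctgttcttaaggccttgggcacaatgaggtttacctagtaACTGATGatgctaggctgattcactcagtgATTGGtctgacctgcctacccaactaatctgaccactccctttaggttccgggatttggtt
H2-Aa: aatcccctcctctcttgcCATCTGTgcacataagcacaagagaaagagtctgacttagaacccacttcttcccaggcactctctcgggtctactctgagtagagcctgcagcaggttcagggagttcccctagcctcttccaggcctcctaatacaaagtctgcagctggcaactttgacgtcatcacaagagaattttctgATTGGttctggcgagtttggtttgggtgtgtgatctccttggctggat

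In the H2-Eb1 and H2-DMb1 promoters the ACNGATG letters began 88 and 91 bases before the start and were followed by a reversed CCAAT at 59 and 61 bases. H2-Eb1 held another CCAAT at 35 bases. In H2-Aa a reversed CCAAT began 48 bases before the start, and the other letters were found only in reverse and far upstream, at 232 bases. Only these exact letters were searched, so that their absence near the start does not show that H2-Aa lacks an X box there. Of the 2 windows listed for H2-DMa, one held neither motif and the other held a reversed CCAAT at 198 bases before its start. Over all 32851 windows of 300 bases, which reach 50 bases past the start, 37.4% held CCAAT, 9.85% held ACNGATG and 3.65% held both, so that a match is a description and not a binding site. H2-Ab1 and Ciita were not matched to a window.

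The libraries held 41536788 to 64644293 counts, and 18853 genes were tested. The genotype check matched the labels: Cd248 lay at 92.4 to 337 CPM (the count relative to the library total, scaled by TMM) in the 6 WT libraries and at most 0.248 CPM in the 6 lacZ libraries. Of the B cell markers, Cd79b did not exceed 3.51 CPM in any library and Pax5, chosen after its values were seen, had 2 to 13 counts, too few to be tested. Lyz2, of macrophages, lay at 931 to 2201 CPM, Col3a1, a collagen of dermal fibroblasts, at 9666 to 56601 CPM, and Krt14, of basal keratinocytes, at 3051 to 24932 CPM. In tissue libraries such as these, fewer cells of a type and less RNA per cell cannot be told apart. Replicate 1 of the WT traction group stood apart from all other libraries in interferon-γ response and neutrophil genes, as described further on. Several of the edgeR results for traction are given with and without it. The correlations were computed only with it. Of the keratinocyte genes, it was the lowest library for Krt10 (145 CPM against 1297 to 4136 CPM elsewhere) and Krt1 (813 against 831 to 5765 CPM). Krt5 and Krt14 were 1.41-fold and 1.89-fold above the mean of the other replicates of its group. These 4 are given after their values were seen.

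Counted per kilobase of exon, Cd74 was the most abundant member, with 311 CPM per kb on average. It was followed by H2-Eb1 with 148, H2-Aa with 104 and H2-Ab1 with 101 CPM per kb. The accessory genes were far lower, at 22.9 CPM per kb for H2-DMb1, 7.20 for H2-DMa and 2.41 for Ciita. The neighbours H2-Aa and H2-Ab1 in this order did not differ beyond the spread among the mice: in WT sham mice they lay at 127 ± 42.0 and 121 ± 34.8 CPM per kb (SD, n = 3). In lacZ sham mice, on the other hand, they were at 126 ± 10.4 and 81.1 ± 4.65 CPM per kb (SD, n = 3). The length used was that of all annotated exons of a gene merged, and the order depends on it. In CPM without length, Cd74 was at 522, H2-Aa at 396, H2-Eb1 at 287 and H2-Ab1 at 259 on average. All 7 passed the filter on low counts, the lowest count in any library being 517, for Ciita.

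None of the 7 members passed the test for traction or genotype across all genes. In WT mice 0 of 7 passed an adjusted p of 0.05 for traction against sham by edgeR's quasi-likelihood test, with Benjamini-Hochberg adjustment, where 9.15% of all genes tested did. DESeq2 and limma-voom also called 0 of 7, beside 21.5% and 3.97% of all genes. At an unadjusted p under 0.05 there were 0 members by edgeR (31.4% of all genes), 1 by DESeq2 and 2 by limma-voom. For DESeq2 and limma-voom the shares of all genes at an unadjusted p were not counted in any comparison. Their counts of members are therefore not read as a result. In lacZ mice 0 of 7 were called for traction against sham by edgeR, DESeq2 and limma-voom, beside 0%, 0.122% and 2.31% of all genes, with 0 (8.12% of all genes), 0 and 1 members under an unadjusted p of 0.05. For lacZ against WT under traction, the 3 tools called 0 of 7, beside 0.106% (20 genes, which became 1421 without replicate 2 of the WT traction group), 12.2% and 0.0849% of all genes, and in sham mice 0 of 7, beside 0.0106%, 0.143% and 0.0053%. No member reached an unadjusted p of 0.05 in either genotype comparison by any of the 3 tools, where 26.1% and 11.7% of all genes did by edgeR.

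**Figure D1:**
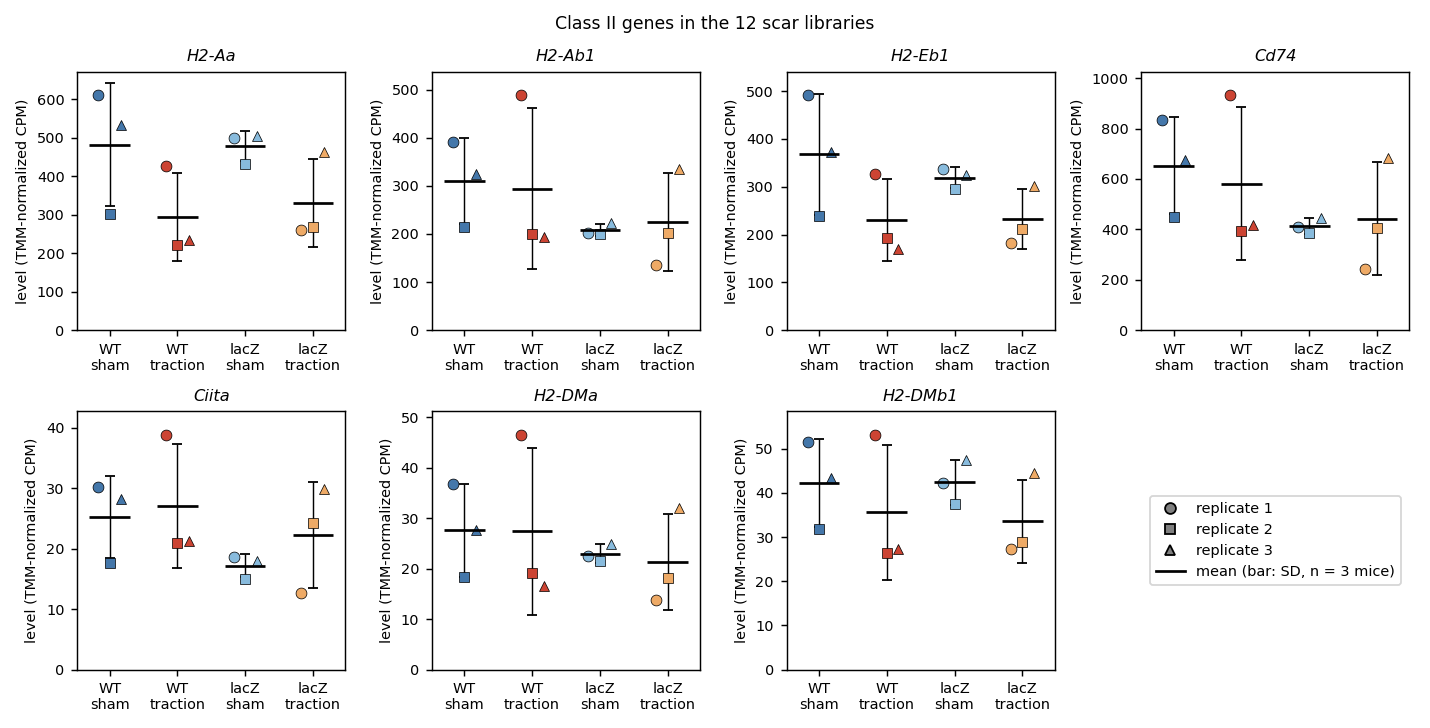
Level of each class II gene (TMM-normalized CPM, y axis) in the 12 libraries by group, with replicates as symbols and the mean ± SD as bars (n = 3 mice). Replicate 1 of the WT traction group is the highest of the 12 libraries for H2-Ab1, Cd74, Ciita, H2-DMa and H2-DMb1, and the other replicates of that group lie between 195 and 199.7 CPM for H2-Ab1.

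The peptide-binding chains come first. H2-Aa, the α chain of I-A, lay at 609, 303 and 532 CPM in the WT sham mice and at 426, 222 and 233 CPM in the WT traction mice. In the lacZ sham mice it was 498, 433 and 505 CPM, and in the lacZ traction mice 259.6, 269 and 462 CPM. Traction libraries were the lower ones in both genotypes, but 1 library in each traction group reached into the range of its sham group. The log2 fold change of H2-Aa with traction was −0.71 (SE 0.333, adjusted p = 0.169 by edgeR) in WT and −0.53 (SE 0.333, adjusted p = 0.67 by edgeR) in lacZ mice.

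H2-Eb1, the β chain of I-E, followed the same order, with 491, 239 and 372 CPM in WT sham and 328, 192 and 169.7 CPM in WT traction mice. In lacZ mice the values were 338, 295 and 324 CPM in sham and 181, 212 and 302 CPM with traction. The groups overlapped in each genotype through the highest traction library. Its log2 fold change was −0.68 (SE 0.309, adjusted p = 0.16 by edgeR) in WT and −0.46 (SE 0.308, adjusted p = 0.684 by edgeR) in lacZ mice.

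H2-Ab1, the β chain that pairs with H2-Aa, did not have this order. It lay at 392, 215 and 326 CPM in WT sham and at 488, 199.7 and 195 CPM in WT traction mice, so that replicate 1 of the traction group was above every sham mouse and the other replicates below. In lacZ sham mice it was 203, 200.2 and 222 CPM, a narrow range, and in lacZ traction mice 135, 202 and 335 CPM, a wide one on both sides of it. The log2 fold change with traction was −0.08 (95% interval −0.96 to 0.81) in WT and 0.11 (−0.78 to 0.99) in lacZ mice.

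The levels of Cd74, the invariant chain, were 834, 448 and 677 CPM in WT sham, 931, 394 and 417 CPM in WT traction, 408, 384 and 446 CPM in lacZ sham and 241, 406 and 682 CPM in lacZ traction mice. All 3 lacZ sham mice were below all 3 WT sham mice, and this was the only one of the 28 member comparisons between group pairs in which the libraries did not overlap; among all genes tested, 26.8% did not overlap in that comparison, 35.7% for traction in WT, 12.9% for traction in lacZ and 26.6% for genotype under traction. The log2 difference of Cd74 between lacZ and WT sham mice was −0.66 (SE 0.412, adjusted p = 0.529 by edgeR).

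The H2-DM genes, whose products load peptide in late endosomes, were lower in level per length than the chains. H2-DMa had 36.9, 18.4 and 27.6 CPM in WT sham, 46.5, 19.2 and 16.6 CPM in WT traction, 22.6, 21.4 and 25.0 CPM in lacZ sham and 13.8, 18.1 and 32.03 CPM in lacZ traction mice. H2-DMb1 had 51.6, 31.8 and 43.4 CPM in WT sham, 53.2, 26.4 and 27.3 CPM in WT traction, 42.2, 37.5 and 47.5 CPM in lacZ sham and 27.4, 28.9 and 44.4 CPM in lacZ traction mice. Both genes repeated the pattern of 1 high library in each traction group. Their log2 fold changes with traction ran from −0.34 for H2-DMb1 in lacZ mice to −0.01 for H2-DMa in WT mice, and all 4 intervals spanned 0. Of the 50-base windows of the H2-DMb1 transcripts, 22.7% also occur in H2-DMb2, so that reads could be divided between these neighbours.

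Ciita, the transactivator, was the only member with a higher mean in both traction groups than in the sham groups, an order that turned in WT mice under upper quartile scaling and with limma-voom (log2 fold changes of −0.03 and −0.02). It was measured at 30.2, 17.6 and 28.2 CPM in WT sham and 38.9, 20.9 and 21.3 CPM in WT traction mice. The lacZ mice had 18.6, 15.02 and 17.99 CPM in sham and 12.7, 24.3 and 29.9 CPM with traction. The spread was wider than the shift in mean in both genotypes: log2 fold change 0.09 (95% interval −0.64 to 0.83) in WT and 0.38 (−0.36 to 1.12) in lacZ mice.

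**Figure D2:**
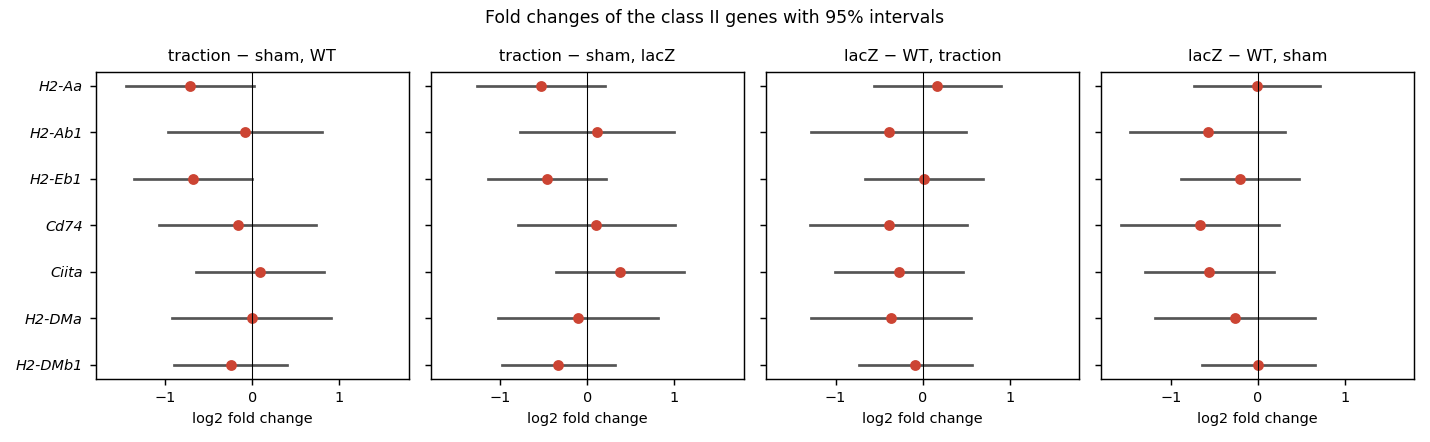
Log2 fold change of the class II genes (x axis) in the 4 comparisons between group pairs, with points for the edgeR estimate and lines for its 95% interval. Every interval reaches 0, and the estimates of H2-Aa and H2-Eb1 with traction in WT mice, −0.71 and −0.68, lie farthest from it.

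Between genotypes, the members in sham mice ran from a log2 difference of −0.66 for Cd74 to 0.01 for H2-DMb1, with a median of −0.26 beside −0.01 for all genes tested. Ciita was at −0.56 (SE 0.336, adjusted p = 0.517 by edgeR) and H2-Ab1 at −0.58 (SE 0.404, adjusted p = 0.572 by edgeR). H2-Aa, in contrast, was at −0.01 (95% interval −0.74 to 0.72), H2-Eb1 at −0.20 and H2-DMa at −0.26. Under traction the differences between lacZ and WT mice ran from −0.39 for Cd74 and H2-Ab1 through −0.36 for H2-DMa, −0.27 for Ciita, −0.08 for H2-DMb1 and 0.01 for H2-Eb1 to 0.17 for H2-Aa. None was larger than the spread between the mice.

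The interaction asks whether traction acted differently in the 2 genotypes. The 3 tools called 0 of 7 members, beside 0%, 0.366% and 0% of all genes, and no member had an unadjusted p under 0.05 by any of them (8.91% of all genes by edgeR). The estimates were 0.18 for H2-Aa, 0.19 for H2-Ab1, 0.22 for H2-Eb1, 0.27 for Cd74, 0.28 for Ciita, −0.10 for H2-DMa and −0.09 for H2-DMb1 on the log2 scale, with SEs of 0.417 to 0.589. Averaged over treatments, lacZ against WT gave 0 of 7 calls by edgeR, DESeq2 and limma-voom, beside 0.053%, 15.7% and 3.07% of all genes, and no member had an unadjusted p under 0.05 by the 3 tools (28.4% of all genes by edgeR). The estimates were 0.08 for H2-Aa, −0.48 for H2-Ab1, −0.10 for H2-Eb1, −0.53 for Cd74, −0.42 for Ciita, −0.31 for H2-DMa and −0.04 for H2-DMb1.

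Averaged over genotypes, traction against sham called 0 of 7 members by edgeR, DESeq2 and limma-voom, beside 9.73%, 20.4% and 20.6% of all genes. Here H2-Aa and H2-Eb1 had an unadjusted p under 0.05 by edgeR, as did 30.7% of all genes. By DESeq2 and by limma-voom 2 members each did, where the shares of all genes were not counted. H2-Aa was at −0.62 on the log2 scale (SE 0.235, adjusted p = 0.104 by edgeR) and H2-Eb1 at −0.57 (SE 0.218, adjusted p = 0.108 by edgeR). The other members were at 0.01 for H2-Ab1, −0.03 for Cd74, 0.23 for Ciita, −0.06 for H2-DMa and −0.29 for H2-DMb1. Without replicate 1 of the WT traction group, H2-Aa (−0.80, adjusted p = 0.0472 by edgeR) and H2-Eb1 (−0.73, adjusted p = 0.0477 by edgeR) passed the threshold, beside 8.78% of the 19388 genes then tested. In WT mice alone, the fold changes without that library were −1.10 for H2-Aa (adjusted p = 0.0778 by edgeR) and −1.04 for H2-Eb1 (adjusted p = 0.0729 by edgeR), and all 7 members were lower than in sham mice, with a median of −0.67 in place of −0.17. With that library left out, all 7 differences between lacZ and WT mice under traction were above 0, from 0.12 for Ciita to 0.57 for H2-Aa, none of them called.

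Across the 12 libraries the members fell into 2 sets that moved together. H2-Aa, H2-Eb1 and H2-DMb1 had Pearson correlations of log2 CPM with each other of 0.924 to 0.967. H2-Ab1, Cd74, Ciita and H2-DMa had correlations of 0.821 to 0.992 with each other, the tightest being H2-Ab1 with Cd74. The lowest correlation of all 21 pairs was that of H2-Aa with Ciita, at 0.373. The sets were not sharp, since H2-DMa also had 0.903 with H2-DMb1. Once the group means were taken out, all 21 pairs lay between 0.869 and 0.992, so that within groups the 7 genes rose and fell together. These correlations are descriptions over 12 libraries that share their depth scaling with all members, and the sets were named after the values were seen.

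The sets can be compared without their shared movement in the ratio of H2-Aa to H2-Ab1, the paired chains of I-A. It was 1.56, 1.41 and 1.64 in WT sham mice and 0.873, 1.11 and 1.20 in WT traction mice. In lacZ mice it was 2.45, 2.16 and 2.27 in sham and 1.92, 1.33 and 1.38 with traction. The groups did not overlap in any of the 4 comparisons: the ratio was lower with traction in both genotypes and higher in lacZ than in WT mice under both treatments. The ratio of any tested gene to H2-Ab1 did not overlap for 12.1% of genes with traction in WT, 5.16% with traction in lacZ, 6.51% between genotypes under traction and 29% between genotypes in sham mice. The ratio was picked after its values were seen and carries no test.

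As means, the ratio of H2-Aa to H2-Ab1 was 1.53 ± 0.115 (SD, n = 3) in WT sham, 1.06 ± 0.168 in WT traction, 2.30 ± 0.148 in lacZ sham and 1.54 ± 0.326 in lacZ traction mice. The fold between the means was 0.692 with traction in WT and 0.671 in lacZ mice, and leaving out any 1 library of the groups compared moved it only within 0.647 to 0.753 and 0.589 to 0.717. The ratio of H2-Aa to Ciita likewise did not overlap in any of the 4 comparisons, at 18.8 ± 1.48 in WT sham, 10.8 ± 0.199 in WT traction, 27.9 ± 1.06 in lacZ sham and 15.6 ± 4.67 in lacZ traction mice (SD, n = 3). This is the pair with the lowest correlation, and its ratio carries no test. The ratios of H2-Aa to Cd74 and to H2-DMa separated in the same way. Of the 21 ratios between members, 11 did not overlap for traction in WT and 10 in lacZ mice. For genotype 5 did not overlap under traction and 15 in sham mice. The share of all genes was counted only for ratios to H2-Ab1, not for those to Ciita or another member. The 21 ratios share their genes and are not independent, so that the counts of ratios without overlap are not read as a result. Cd74 and H2-Ab1 kept a nearly fixed proportion: H2-Ab1 was 0.467 to 0.562 of Cd74 in every library, with a coefficient of variation of 5.34% over all 12. Even this ratio did not overlap between genotypes in sham mice, at 0.469 to 0.481 in WT and 0.497 to 0.522 in lacZ mice. Of all genes, 29% had a ratio to H2-Ab1 that did not overlap there. A ratio shows only that 2 genes changed unequally and does not say which of them did.

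**Figure D3:**
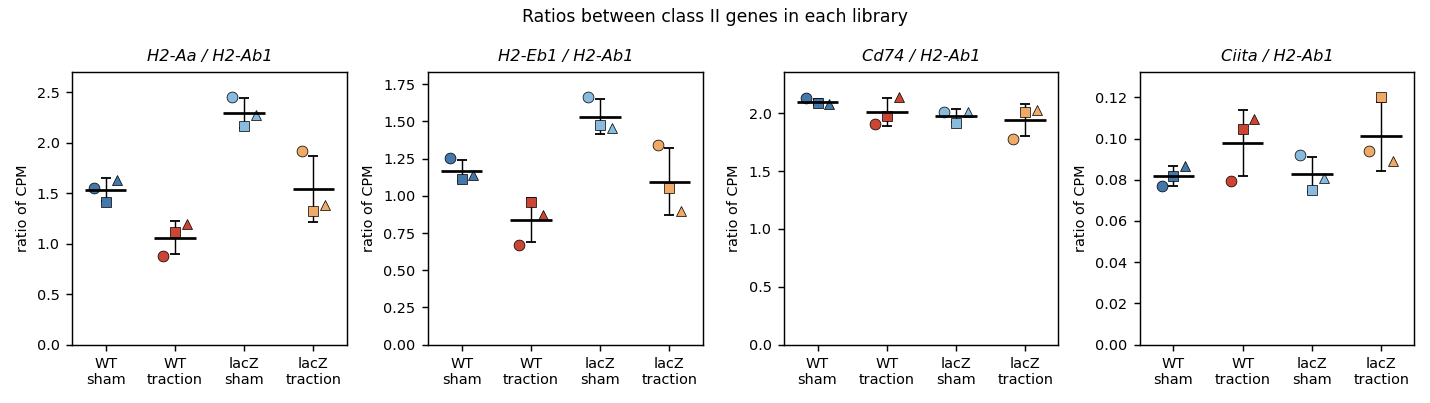
Ratio of the CPM of H2-Aa, H2-Eb1, Cd74 and Ciita to that of H2-Ab1 (y axis) in each library by group, with circles, squares and triangles for replicates 1, 2 and 3 and bars for the mean ± SD (n = 3 mice). The H2-Aa ratio falls into non-overlapping ranges in each of the 4 comparisons between group pairs, from 0.873 at the lowest WT traction mouse to 2.45 at the highest lacZ sham mouse. The Cd74 ratio varies less, from 1.78 to 2.14, and does not overlap between genotypes in sham mice.

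Replicate 1 of the WT traction group held the highest level of the 12 libraries for 5 of 7 members, and 16.9% of all genes tested were also highest there. Its members were 1.81-fold (H2-Eb1) to 2.59-fold (H2-DMa) above the mean of the other replicates of its group. Gbp2, a guanylate-binding protein that interferon-γ induces, lay at 1434 CPM against 37.8 and 50.9 CPM in the other replicates and 93.5 CPM at most in any other library. Ifng itself was 2.66 CPM there and at most 0.415 CPM elsewhere, and Irf1, which drives the interferon-γ dependent promoter of Ciita, was 859 CPM against 54.4 and 59.1 CPM (both genes were chosen after their values were seen). Ciita was 38.9 CPM there, 1.84-fold above the other replicates of its group.

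The lists for the pathway and for cell types, 115 tested genes outside the members, were set beside the members in the same fit. By edgeR no list gene was called for traction in lacZ mice, for genotype under traction or for genotype in sham mice. In those comparisons 11.3%, 41.7% and 1.74% of the list genes had an unadjusted p under 0.05 by edgeR, beside 8.12%, 26.1% and 11.7% of all genes. DESeq2 called 0, 22 and 0 of the 115 (19.1% for genotype under traction, beside 12.2% of all genes) and limma-voom 4, 0 and 0. For traction in WT mice edgeR called 11 higher and 4 lower, or 13% beside 9.15% of all genes. For traction against sham in WT mice, 0 of 9 genes of interferon-γ signalling and Ciita induction and 0 of 10 interferon-γ response genes were called, with medians of 1.13 and 1.65 on the log2 scale and 7 and 5 genes under an unadjusted p of 0.05 by edgeR, beside 31.4% of all genes. DESeq2 called 4 and 2 of them, beside 21.5% of all genes, and limma-voom none. Without replicate 1 those medians were 0.27 and −0.22, and still none was called. The sum of the interferon-γ response genes was 3075 CPM in replicate 1 and 178 to 416 CPM in the other 11 libraries. Averaged over genotypes, 1 of the 9 was called higher by edgeR, and 2 each were called by DESeq2 and limma-voom. The shares of all genes were 9.73%, 20.4% and 20.6%, so that these counts are near them. The gene called by edgeR was Spi1, the myeloid transcription factor PU.1. It rose by 1.23 (SE 0.313, adjusted p = 0.039 by edgeR), or by 0.95 without replicate 1. Jak1, a kinase of the interferon-γ receptor, was at 309, 252 and 318 CPM in WT sham and 480.3, 409.99 and 375 CPM in WT traction mice.

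The class I genes, which present peptides to CD8 T cells and share part of their control with class II, had 0 of 10 called in WT mice with traction and a median of 0.54, or −0.45 without replicate 1. By edgeR 1 of them had an unadjusted p under 0.05, DESeq2 called 1 and limma-voom none, beside 31.4%, 21.5% and 3.97% of all genes. B2m, the light chain of class I, was at 1446, 774 and 1438 CPM in WT sham and 1722, 772 and 589 CPM in WT traction mice, again with 1 high library. Across the 12 libraries the log2 sum of the class I list had a correlation of 0.804 with the mean standardized level of the members. That of the interferon-γ response list was 0.629, of the T cell list 0.703, of the dendritic cell list 0.417, of the macrophage list 0.412 and of the neutrophil list 0.0904. These are descriptions over 12 libraries that share depth and scaling, and they were not computed without replicate 1 of the WT traction group.

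**Figure D4:**
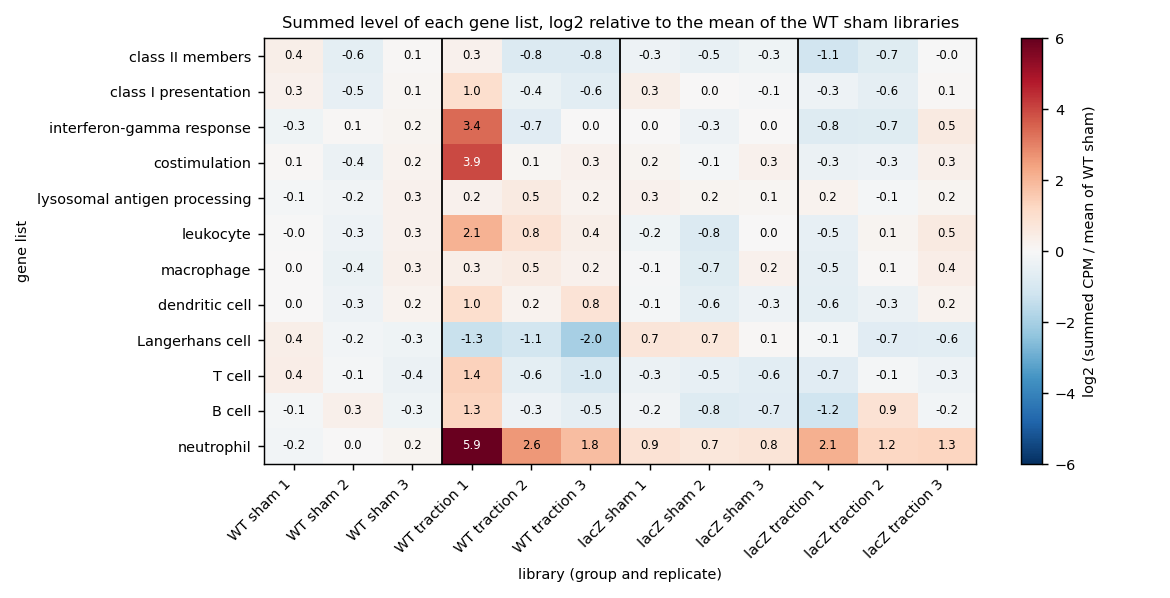
Summed level of each gene list in the 12 libraries (x axis), as the log2 of summed CPM over the mean of the WT sham libraries, with red for higher and blue for lower and the value in each cell. Replicate 1 of the WT traction group is at 3.42 for interferon-γ response genes and 5.94 for neutrophil genes but at 0.28 for the class II members.

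Of the factors that occupy class II promoters, 1 of 7 was called higher in WT mice with traction, beside 5.61% of all genes, and the median of the list was 0.15, or −0.07 without replicate 1. The called gene was Nfya, a subunit of the NF-Y complex that binds the Y box, at 38.5, 41.9 and 42.7 CPM in WT sham and 56.2, 52.3 and 65.6 CPM in WT traction mice. It rose by 0.50 on the log2 scale (SE 0.132, adjusted p = 0.0423 by edgeR), and without replicate 1 of the WT traction group the fold change was 0.50 as well, at an adjusted p of 0.08 by edgeR. None of the 7 factors was called in the other comparisons between group pairs, in which 0, 2 and 0 of them had an unadjusted p under 0.05 by edgeR for traction in lacZ mice and for genotype under traction and in sham mice. DESeq2 called 0, 2 and 0 of them there and limma-voom none. Of all genes 8.12%, 26.1% and 11.7% had an unadjusted p under 0.05 by edgeR, and DESeq2 called 0.122%, 12.2% and 0.143%.

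Few counts fell on further class II genes. H2-DMb2, the other DM β chain, lay at 2.80 to 10.2 CPM, and H2-Oa and H2-Ob, which form the inhibitor of H2-DM, did not exceed 1.39 and 2.52 CPM. None of the 4 tested was called in any of the 7 comparisons by edgeR, DESeq2 or limma-voom, with 1 under an unadjusted p of 0.05 by edgeR for traction in WT mice. The I-E α pseudogene H2-Ea-ps had 0 counts in all 12 libraries. Of the lysosomal proteases and reductase that prepare peptides and cut the invariant chain, 0 of 8 were called in WT mice with traction. By edgeR 2 had an unadjusted p under 0.05, DESeq2 called 1 and limma-voom 0, beside 31.4%, 21.5% and 3.97% of all genes. Averaged over genotypes, Lgmn, which encodes asparagine endopeptidase, rose by 0.74 (SE 0.198, adjusted p = 0.0434 by edgeR). Its fold change lay between 0.61 and 0.85 with any 1 library left out, and in 9 of those 12 settings it was not called. Cd83, which keeps class II at the cell surface, was at 18.9 to 31.1 CPM in WT sham and 9.32 to 15.3 CPM in WT traction mice (log2 fold change −0.85, adjusted p = 0.175 by edgeR).

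Costimulation is the second signal that a T cell needs beside the peptide. In WT mice with traction 1 of 6 genes was called higher, beside 5.61% of all genes. Cd80, a ligand of CD28, rose by 2.01 (SE 0.53, adjusted p = 0.0431 by edgeR), from 6.25, 3.22 and 9.09 CPM in sham to 36.4, 17.4 and 20.8 CPM with traction. It was not called without replicate 1 of the traction group (log2 fold change 1.61). Cd274, the ligand of the inhibitory receptor PD-1, was at 791 CPM in replicate 1 and at 7.57 to 21.8 CPM in the other 11 libraries, and is given after its values were seen.

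Genes of the cells that present with class II did not all move alike. In WT mice with traction, 2 of 10 dendritic cell genes were called lower and 1 higher, beside 3.54% of all genes called lower (668) and 5.61% higher (1057), a split that was 939 lower and 734 higher with upper quartile scaling. Xcr1, the chemokine receptor of cross-presenting dendritic cells, fell by 2.11 on the log2 scale (SE 0.379, adjusted p = 0.0252 by edgeR), and Cd209a, a lectin of dermal dendritic cells, fell by 1.43 (SE 0.28, adjusted p = 0.0278 by edgeR). Fscn1, an actin-bundling protein of mature dendritic cells that other cells also make, rose by 1.64 (SE 0.33, adjusted p = 0.0296 by edgeR). Both Langerhans cell genes were called lower: Cd207, the lectin of the Birbeck granule, fell by 1.76 (SE 0.449, adjusted p = 0.0403 by edgeR) and Epcam, which other epithelial cells of skin also make, by 1.38 (SE 0.291, adjusted p = 0.0311 by edgeR).

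The levels of Cd207 were 27.7, 13.4 and 17.7 CPM in WT sham and 3.81, 6.01 and 7.58 CPM in WT traction mice, and those of Cd209a were 27.3, 12.7 and 13.2 CPM against 5.76, 7.18 and 6.82 CPM. For neither gene did the groups overlap, which also held for 35.7% of all genes tested, and both were named for their calls in this comparison. Replicate 1 of the traction group, which was high for the members, was the lowest for both. Xcr1 was at 5.38, 2.28 and 3.51 CPM against 1.24, 0.729 and 0.616 CPM. Without replicate 1 of the traction group, 1 of 10 dendritic cell genes and 0 of 2 Langerhans cell genes were called, beside 1.86% of all genes. The list medians were then −0.49 and −1.51 in place of −0.23 and −1.57. In lacZ mice the same comparison called 0 of 10 and 0 of 2, with 2 and 1 under an unadjusted p of 0.05 by edgeR (8.12% of all genes) and none called by DESeq2 or limma-voom. The part of these cells in the levels of the members was not tested. The calls of the 13 list genes named for traction in WT mice were lost more readily than their fold changes: all 13 kept their sign with any 1 library left out. All 13 calls ended without replicate 1 or replicate 2 of the WT sham group, where 0 of all genes were called, and 10 ended without replicate 1 of the WT traction group or replicate 3 of the lacZ sham group.

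Of the other cell types, 0 of 11 macrophage genes were called in WT mice with traction (2 under an unadjusted p of 0.05 by edgeR, 1 called by DESeq2 and 0 by limma-voom). The shares of all genes were 31.4%, 21.5% and 3.97%. The sum of the macrophage list was 2731 to 4516 CPM in WT sham and 4298 to 5052 CPM in WT traction mice, while that of the members was 1273 to 2444 CPM and 1074 to 2312 CPM. Of the leukocyte genes 0 of 4 were called. By edgeR 3 had an unadjusted p under 0.05, DESeq2 called 3 and limma-voom 0, beside the same shares of all genes. The sum of the leukocyte list was 299 to 445 CPM in WT sham and 472 to 1583 CPM in WT traction mice. The B cell sum did not exceed 10.3 CPM and the T cell sum 107 CPM in any library, with 0 of 5 and 0 of 6 called or under an unadjusted p of 0.05 by edgeR, and none called by DESeq2 or limma-voom. Without replicate 1 the median of the T cell list was −1.43 in place of 0.22, and that of the B cell list −0.31 in place of 0.32. There 1 of 6 T cell genes was called lower, beside 1.86% of all genes called in either direction. The T cell gene called there was Cd3g, of the T cell receptor complex, which fell by 1.98 (SE 0.407, adjusted p = 0.0448 by edgeR). Cd4, the T cell gene of the highest level, was at 48.2 CPM in replicate 1 and at 5.83 to 17.5 CPM in the other 11 libraries. Neutrophil genes, by contrast, had 5 of 8 called higher, beside 5.61% of all genes. Without replicate 1 it was 2 of 8, beside 1.86% of all genes called in either direction. Their median was 4.44 with replicate 1 and 2.21 without it. Mmp9 rose by 4.17, or by 2.89 without replicate 1, and Csf3r by 4.70, or by 3.34 without it. Cxcr2 rose by 4.86, while its fold change without replicate 1 was 3.18 at an adjusted p of 0.0502 by edgeR.

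The genes of the scar's structural cells were counted in the same way. In WT mice with traction 1 of 6 fibroblast genes was called higher, Pdgfra by 1.45 (SE 0.328, adjusted p = 0.0329 by edgeR), and 2 of 4 endothelial genes, Pecam1 by 1.11 (SE 0.229, adjusted p = 0.0301 by edgeR) and Cdh5 by 1.60 (SE 0.344, adjusted p = 0.0317 by edgeR). Of all genes 5.61% were called higher there. Without replicate 1 of the WT traction group the fold changes were 0.95 for Pdgfra, 1.07 for Pecam1 and 1.62 for Cdh5, none of them called (adjusted p = 0.0621, 0.0539 and 0.0526 by edgeR). Of the keratinocyte genes 0 of 4 were called or had an unadjusted p under 0.05 by edgeR, and none was called by DESeq2 or limma-voom.

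Averaged over genotypes, traction against sham called 16 of the 115 list genes higher and 5 lower, or 18.3% beside 9.73% of all genes. This comparison shares its WT libraries with the comparison in WT mice alone. Of the fibroblast genes 3 of 6 were called higher: Col1a1 and Col1a2, the chains of type I collagen, rose by 1.56 and 1.34 and Pdgfra by 1.12 on the log2 scale. Of the endothelial genes 3 of 4 were called higher, Cdh5 rising by 1.39, Pecam1 by 0.79 and Kdr, a receptor of VEGF, by 0.73. Of the leukocyte genes 1 of 4 was called: Laptm5, a lysosomal membrane protein of blood cells, rose by 1.23 (SE 0.283, adjusted p = 0.0315 by edgeR).

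Among the presenting cells, 3 of 10 dendritic cell genes were called lower and 1 higher in that comparison, and both Langerhans cell genes lower. Of all genes 9.73% were called there in either direction. Xcr1 fell by 1.46, Cd209a by 0.96, Epcam by 1.17 and Cd207 by 1.33, while Fscn1 rose by 1.17. Neutrophil genes had 5 of 8 called higher, with fold changes of 3.25 for Csf3r, 2.92 for Cxcr2 and 2.29 for Mmp9, or 2.59, 2.09 and 1.67 without replicate 1 of the WT traction group. Nfya rose by 0.34, but its adjusted p was 0.0547 by edgeR without that library. All 18 list genes named for this comparison kept their sign with any 1 library left out. None of the 18 was called without replicate 1 of the WT sham group, replicate 2 of the lacZ sham group or replicate 2 of the lacZ traction group, where 15, 0 and 17 of all genes were called in place of 1835.

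The genes whose level was most like that of the members over the 12 libraries were found by rank. By Pearson correlation with the mean standardized log2 CPM of the members, Gzma, a protease of cytotoxic granules, came first at 0.953, with 0.148 to 2.43 CPM in all libraries. It was followed by Fcrla at 0.916, Naaa at 0.908, Ifih1 at 0.907 and Slamf7 at 0.892. Lilra5 (0.875), Ntrk2 (0.866), Slamf8 (0.859), H2-Q4 (0.859) and Gbp8 (0.858) completed the 10 highest. Naaa, a lysosomal acid amidase, lay at 53.0 to 103 CPM, Ifih1, a sensor of viral RNA, at 24.7 to 65.9 CPM and Slamf7, a receptor of lymphoid and myeloid cells, at 10.2 to 28.2 CPM. A likeness over 12 libraries is a description and carries no test. The ranking was not repeated without replicate 1 of the WT traction group.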

How the data were processed

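RNA was measured in 12 mouse scar libraries. According to the study's methods and the submitters' processing notes, the authors built TruSeq Stranded mRNA libraries, trimmed reads with fastp 0.20.0, aligned them to GRCm38 with HISAT2 2.1.0 and counted them with featureCounts 2.0.0. The deposited values are raw counts per gene. The annotation and the strand and multimapping settings are not given in the sources used here, so that overlapping antisense genes may share reads.

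All 12 libraries entered 1 fit of the 4 groups with edgeR 4.0.16 (R 4.3.3, filterByExpr by group, TMM, robust quasi-likelihood test), with Benjamini-Hochberg adjustment over 18853 genes and a threshold of 0.05. The comparisons shared control groups. Groups and replicate numbers came from the labels, and each library is 1 mouse. DESeq2 1.42.0, limma 3.58.1 (voom with sample weights), other scaling, filters, a replicate block and leaving out each library were alternatives. CPM values are scaled by TMM. The procedure was tested on simulated data. Exon lengths came from GENCODE annotation on GRCm38, with the exons of all transcripts of a gene merged, and figures were drawn with matplotlib.

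The members, lists and tests were chosen with earlier results of these data known. Named were all members, Cd248 as a check, from each list the called genes (at most the 3 with the smallest p per comparison) or else the gene with the highest level, and the 10 genes most like the members; H2-Oa, H2-Ob and genes marked so in the text were chosen after their values were seen. Correlations use log2 CPM with a prior count of 2. The symbols March1, Marchf1, March8, Marchf8 and H2-Ea were not matched in the files, where 27 symbols had been turned into dates. Cd74 promoter sequence is not reported here.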

Additional observations from a re-analysis of the deposited data

How the results depend on the processing

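The count of called members stayed at 0 in all 7 comparisons under every alternative run but 1: for traction averaged over genotypes, leaving out 1 library gave 0 to 2 members, the 2 being H2-Aa and H2-Eb1 without replicate 1 of the WT traction group. Of 1057 values of single members under the alternatives, 939 kept direction and side of the threshold, 2 passed the threshold and 116 changed sign, and the cause was not tested. The labels do not say whether same-numbered replicates share more than a number, and this was not tested. Of same-numbered pairs of libraries, 8 of 18 had a correlation of deviations over 0.1 (−0.324 to 0.25). Pairs with other numbers lay between −0.403 and 0.373. Those over 0.1 were lacZ sham replicate 1 with lacZ traction replicate 3 (0.373) and lacZ sham replicate 2 with lacZ traction replicate 1 (0.34). With the replicate as a block 0 members were called in any comparison, and 1467 genes in all for traction in WT mice in place of 1725. Upper quartile scaling moved the median of all genes to −0.12 for traction in WT mice and 0.14 for genotype under traction, and values under it are relative to that shift. With upper quartile scaling the reversed values were −0.031 for Ciita (traction in WT mice), 0.057 for H2-DMb1 (genotype under traction), 0.046 for H2-Aa (genotype in sham mice), −0.072 for H2-Ab1 (traction averaged over genotypes) and 0.00200 for H2-Eb1 and 0.059 for H2-DMb1 (genotype averaged over treatments). With limma-voom the reversed values were −0.016 for Ciita (traction in WT mice), 0.039 for H2-DMa (traction in lacZ mice), 0.15 for H2-Ab1, 0.15 for Cd74, 0.15 for Ciita, 0.19 for H2-DMa and 0.29 for H2-DMb1 (genotype under traction), 0.14 for H2-Aa (genotype in sham mice), 0.25 for H2-DMa and 0.14 for H2-DMb1 (the interaction), −0.025 for H2-Ab1 (traction averaged over genotypes) and 0.13 for H2-Eb1, 0.063 for H2-DMa and 0.22 for H2-DMb1 (genotype averaged over treatments). With DESeq2 size factors the reversed values were 0.013 for H2-DMa (traction in WT mice), −0.000990 for H2-Eb1 (genotype under traction) and −0.000966 for H2-DMb1 (genotype in sham mice). With DESeq2 the reversed values were 0.013 for H2-DMa (traction in WT mice), −0.000988 for H2-Eb1 (genotype under traction) and −0.00101 for H2-DMb1 (genotype in sham mice). With the replicate block the reversed values were 0.044 for H2-Aa (genotype in sham mice). With no filter the reversed values were −0.023 for H2-DMb1 (genotype in sham mice). With H2-DMb1 and H2-DMb2 counts added the reversed values were −0.00726 for H2-DMb1 (genotype in sham mice). With a minimum of 10 counts per library the reversed values were −0.00479 for H2-Ab1 (traction averaged over genotypes). With 1 library left out, the members with a change of sign had these lowest and highest values. For the interaction they were −0.20 to 0.85 for Cd74, −0.00257 to 0.69 for Ciita, −0.16 to 0.60 for H2-Aa, −0.24 to 0.82 for H2-Ab1, −0.54 to 0.57 for H2-DMa, −0.36 to 0.37 for H2-DMb1 and −0.045 to 0.61 for H2-Eb1. For genotype averaged over treatments they were −0.074 to 0.27 for H2-Aa, −0.52 to 0.00248 for H2-DMa, −0.16 to 0.17 for H2-DMb1 and −0.21 to 0.086 for H2-Eb1. For genotype in sham mice they were −0.23 to 0.20 for H2-Aa, −0.46 to 0.00305 for H2-DMa, −0.14 to 0.18 for H2-DMb1 and −0.41 to 0.064 for H2-Eb1. For genotype under traction they were −0.85 to 0.17 for Cd74, −0.54 to 0.12 for Ciita, −0.15 to 0.57 for H2-Aa, −0.80 to 0.22 for H2-Ab1, −0.78 to 0.29 for H2-DMa, −0.34 to 0.36 for H2-DMb1 and −0.22 to 0.39 for H2-Eb1. For traction averaged over genotypes they were −0.28 to 0.14 for Cd74, −0.26 to 0.17 for H2-Ab1 and −0.36 to 0.094 for H2-DMa. For traction in lacZ mice they were −0.36 to 0.45 for Cd74, −0.31 to 0.41 for H2-Ab1 and −0.53 to 0.17 for H2-DMa. For traction in WT mice they were −0.71 to 0.064 for Cd74, −0.28 to 0.27 for Ciita, −0.67 to 0.16 for H2-Ab1 and −0.64 to 0.26 for H2-DMa. All genes called for traction in WT mice numbered 1725 by edgeR, 1011 with no filter, 4047 by DESeq2, 748 by limma-voom, 360 without replicate 1 and 2861 without replicate 2 of the WT traction group, 169 without replicate 3 of the lacZ sham group and 0 with only the 6 libraries compared or without replicate 1 or 2 of the WT sham group. For traction averaged over genotypes they numbered 1835, and 0 to 3422 with 1 library left out. Without replicate 2 of the WT traction group 1421 genes were called for genotype under traction in place of 20, 1016 for genotype averaged over treatments in place of 10 and 31 for the interaction in place of 0. With only the 6 libraries compared, none of the 13 list genes named for that comparison kept an adjusted p under 0.05 (0.0747 to 0.0979 by edgeR). With 3 mice a group, the standard errors of 0.295 to 0.417 between group pairs limit what can be seen.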
